A study of Mus musculus with 8 samples.

Results

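The genes described here encode the proteins that recognise the 3′ end of an intron and the core particles of the spliceosome, 34 genes of the 52224 in the deposited table. They were chosen by name, not by their values, though earlier results of these data were known. They are the U2AF subunits and their partner Sf1, the SF3A and SF3B subunits and proteins of the U1 and U2 particles. The Sm ring, the U4/U6.U5 tri-snRNP and catalytic core, and the factors Prpf19 and Ddx46 complete the set. RNA was sequenced from mouse bone marrow hematopoietic stem cells that were defined as CD48-CD150+LSK cells, that is, lacking CD48 and lineage markers and carrying CD150, Sca-1 and Kit. There were 4 libraries of genotype DekTg and 4 of genotype DekCon. Beyond these names the labels give no allele. The promoter of any transgene, the strain, the age of the mice and whether a library is 1 mouse or a pool are not stated in the labels. Neither group is labelled with any treatment beyond its genotype name.

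Splicing of an intron begins when U1 binds its 5′ end while Sf1 binds the branch point and U2AF binds the polypyrimidine tract and the AG at its 3′ end. Sf1 then gives way to the U2 particle, in which the SF3A and SF3B complexes hold the branch point, and the tri-snRNP joins to form the catalytic core. DEK, the protein whose gene names the mice, is a chromatin-associated protein that in human cell extracts was reported to act with U2AF in proofreading the 3′ splice site. Human U2AF1, SF3B1, LUC7L2 and PRPF8 are mutated in myeloid neoplasms, which arise from hematopoietic stem and progenitor cells.

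None of the 34 genes passed the test between the genotypes. Limma called 0 of 34 at a Benjamini-Hochberg adjusted p under 0.05, against 13 of the 37414 genes over which p was adjusted, or 0.0347% (0.0267% higher and 0.00802% lower in DekTg). The smallest adjusted p among the 34 was 0.707, for Snrpb. EdgeR, run on the recovered reads, also called 0 of 34 (9 of 37409 genes, 0.0241%). DESeq2 called 0 of the 18 of these genes to which it gave an adjusted p (14 of 3319 such genes, 0.422%). Its independent filtering left the other 16, U2af1 and U2af2 among them, untested, and without that filtering it called 0 of 34 (0.0374% of genes). At an unadjusted p under 0.05 both tools had 2 of 34, a count with no share over all genes beside it and so not read as a result. By limma there were 3 of 34 at an unadjusted p under 0.05 (Snrpb, Eftud2 and Snrnp70, all lower in DekTg), against a background of 6.93% of all genes tested in either direction and 3.78% in that direction. Of the 16904 tested genes whose mean values lay within the range of the 34, 1550 were at that p, 1085 of them lower in DekTg. All 34 genes passed the filter on low values. Values are normalized read counts, that is, gene counts that were divided by a single factor for each library. A fold change is the DekTg mean minus the DekCon mean of log2(value + 1). In such bulk samples fewer cells of a type and less RNA per cell cannot be told apart.

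The point estimates leaned to 1 side. The log2 fold change was below 0 for 32 of 34 genes, against 49.4% of all genes tested, and its median was -0.15, against 0.0057 over all genes tested. Among the 16904 tested genes whose mean values lay within the range of the 34, 57.9% were below 0 and the median was -0.04. The lean was smaller without a single library. Without DekCon 2 the count was 27 of 34, against 50.9% of all genes tested and 57.4% of those in that range. The median was -0.06, against -0.04 in that range, while 29 of the 34 estimates moved nearer to 0. Without that library limma called 0 of 34 (background 0.0401%), with 1 at an unadjusted p under 0.05 (background 5.18%). Without DekTg 2 the estimate was below 0 for 31 of 34 genes (background 47.8%), with 3 at an unadjusted p under 0.05 (background 8.46%) and a median of -0.17. Of the 16904 genes in the level range, 9481 were then below 0 and 2067 at that p. Single estimates were sensitive in the same way. Leaving out 1 library moved the estimate by over 1.5 times, or turned its sign, for 30 of 34 genes (25 for DekCon 2, 16 for DekTg 2 and 7 to 11 for each other library), and the 4 exceptions were Snrnp70, Snrpb, Snrpd3 and Snrnp200. The count was also 27 with library totals made equal (median -0.06) and 23 with quantile normalization (median -0.06), and it remained 32 with TMM scaling. These shares are descriptions of a chosen list and carry no test.

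The shallowest DekTg library held 2642857 recovered reads and the deepest 3591211, and the DekCon libraries lay between 2525884 and 4101132. Dek was listed at 2700, 2296, 1862 and 2710 in DekTg libraries 1 to 4, against 477, 539, 632 and 395 in DekCon libraries 1 to 4 (two-sided exact permutation test, p = 0.0286, the smallest that 4 against 4 allows). All 4 DekTg values of Dek are not whole numbers of reads, unlike every value of the 34 genes, so the size of that difference cannot be taken as measured. Libraries 1 and 4 of each group were closer to each other than any other pair within a group (chi-square per degree of freedom 1.57 and 1.66, against 3.60 to 7.82), though more different than counting noise alone. Stem cell markers such as Kit (1181 to 1557 in DekTg and 1072 to 1396 in DekCon) were read in all libraries, but several of them were low in DekCon 2. Among markers of other cells, 7 of 8 erythroid genes had the higher mean in DekTg (summed value 477 to 603, against 131 to 325 in DekCon). So did 8 of 8 B lymphoid and plasma cell genes (4396 to 5218, against 333 to 1084). The mean was also higher for 4 of 4 T lymphoid genes, but their sums overlapped (147 to 197, against 140 to 157). For megakaryocyte genes it was higher in DekTg for 0 of 4, again with overlapping sums (1949 to 3237, against 2546 to 9046). Over all 37414 genes tested, 18950 had a log2 fold change above 0. The mean was higher in DekTg for 5 of 7 myeloid genes (2144 to 11716, against 3526 to 9107), for 4 of 5 stromal and endothelial genes (631 to 696, against 478 to 714) and for 7 of 13 stem cell genes. Of all these, Hba-a1, Hba-a2, Hbb-bs, Igkc and Jchain passed the test. No marker in these lists was at 0 in every library, and their part in the values below was not tested.

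In DekCon 2 the list of 4 megakaryocyte markers (Itga2b, Pf4, Gp5 and Gp9) summed to 9046, against 1949 to 4600 in the other 7 libraries. Genes of other lineages stood at the ends there too. The erythroid factor gene Klf1 had 231, against 24.0 to 95.2 elsewhere, and the myeloid genes Mpo and Elane had their highest values, 6147 and 1730, with DekCon 3 next at 5441 and 1608. These 2 lists did not move as a whole. Of the 8 erythroid genes, 3 were at their lowest in DekCon 2 and 1 at its highest. Of the 7 myeloid genes, 3 were at their lowest and 2 at their highest. Of the 13 stem cell genes, 6 were at their lowest in DekCon 2 and 4 at their highest. Cd34 had 624 there, against 1109 to 2265 elsewhere, Hlf had 161, against 253 to 422, and Procr had 13.4, against 40.5 to 73.5. The immunoglobulin gene Ighm had 14.4, against 362 to 3636. DekCon 2 also held the highest value of 24 of the 34 spliceosome genes, or 70.6%, where it held the highest value of 16.8% of all genes tested and of 25.8% of those in the level range of the 34. The median deviation of the 34 genes from their own mean over the 8 libraries was 0.36 on the log2 scale in DekCon 2, and between -0.11 and 0.02 in the other 7. With library totals made equal it was 0.20. The part of these cell type markers in the high values of DekCon 2 was not tested.

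**Figure D1:**
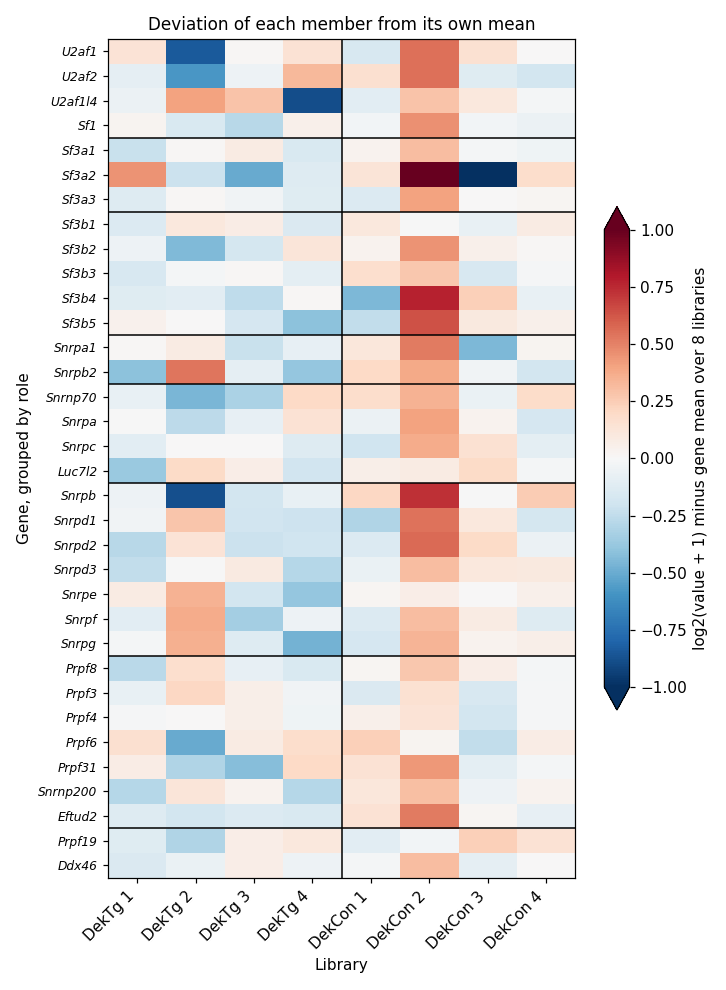
Deviation of log2(value + 1) of each of the 34 genes (rows, grouped by role) from its own mean over the 8 libraries (columns, DekTg left of DekCon); red is above and blue below the mean, and colours saturate at a deviation of 1. The DekCon 2 column is red for nearly every gene, Sf3a2 reaches 1.21 there and -1.12 in DekCon 3, and DekTg 2 is blue for U2af1, U2af2 and Snrpb but red for most other Sm genes.

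The promoters of these genes were compared as a shared feature that the choice of genes did not use. RefSeq promoter windows on GRCm38.p6 (250 bases before to 50 after the start of the gene) matched 28 of the 34 symbols. A gene with more than 1 window was counted if any of its windows held the motif. The number of windows per gene was not compared between the sets. The ETS core CGGAAG, read on both strands, occurred in 19 of 28 (67.9%), against 33.6% of 9928 protein-coding genes in the same range of values and 18.8% of all 27025 genes matched. The GC box GGGCGG occurred in 14 of 28 (50%, against 65.0% of those coding genes), the CCAAT box CCAAT in 11 (39.3%, against 43.2%), the TATA box TATAAA in 2 (7.14%, against 9.55%), the CRE TGACGTCA in 2 (7.14%, against 3.35%) and the palindromic NRF1 motif in 1 (3.57%, against 2.32%). All 6 were read on both strands, and neighbouring GGGCGG and CGGAAG matches can share the letters CGG. A match is a description, not a bound site. The sequences of U2af1, its paralog U2af1l4, Sf3a1 and Sf3b1 are shown to compare a window without the ETS core with windows that hold it, with each match on either strand in capitals.
U2af1, chr17:31658715-31659014, minus strand: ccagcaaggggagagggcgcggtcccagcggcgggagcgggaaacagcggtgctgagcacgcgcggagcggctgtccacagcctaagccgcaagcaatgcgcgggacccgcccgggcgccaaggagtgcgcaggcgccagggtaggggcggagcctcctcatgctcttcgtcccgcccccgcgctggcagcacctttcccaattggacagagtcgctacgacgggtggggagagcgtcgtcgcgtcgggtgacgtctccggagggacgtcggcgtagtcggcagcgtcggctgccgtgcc
U2af1l4, chr7:30563090-30563389, plus strand: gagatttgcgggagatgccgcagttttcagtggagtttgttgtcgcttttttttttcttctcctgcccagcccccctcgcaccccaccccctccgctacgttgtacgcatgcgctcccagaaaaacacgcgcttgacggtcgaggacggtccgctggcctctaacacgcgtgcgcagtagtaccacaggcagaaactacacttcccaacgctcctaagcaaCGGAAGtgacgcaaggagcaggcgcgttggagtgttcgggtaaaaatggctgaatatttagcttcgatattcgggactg
Sf3a1, chr11:4160104-4160403, plus strand: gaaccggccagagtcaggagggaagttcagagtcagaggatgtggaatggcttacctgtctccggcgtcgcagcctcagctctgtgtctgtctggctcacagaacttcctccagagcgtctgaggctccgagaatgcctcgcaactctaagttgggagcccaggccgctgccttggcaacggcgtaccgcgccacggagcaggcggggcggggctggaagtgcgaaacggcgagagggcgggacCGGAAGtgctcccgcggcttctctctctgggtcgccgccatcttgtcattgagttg
Sf3b1, chr1:55027429-55027728, minus strand: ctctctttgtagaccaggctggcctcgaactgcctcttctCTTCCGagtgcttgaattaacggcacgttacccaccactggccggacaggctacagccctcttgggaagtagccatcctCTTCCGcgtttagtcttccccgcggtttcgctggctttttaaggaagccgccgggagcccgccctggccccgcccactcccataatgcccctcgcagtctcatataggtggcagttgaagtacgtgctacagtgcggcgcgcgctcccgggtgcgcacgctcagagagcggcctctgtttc
The U2af1 window holds no ETS core, the U2af1l4 and Sf3a1 windows hold 1 each and the Sf3b1 window holds 2, both on the opposite strand to the gene.

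Among the genes of 3′ splice site recognition, U2af1 encodes the small U2AF subunit, which contacts the AG. It lies at chr17:31647081-31658892 on the minus strand (GRCm38, GENCODE). U2af1 had 182, 92.5, 167 and 184 normalized read counts in DekTg libraries 1 to 4, against 148, 244, 185 and 166 in DekCon libraries 1 to 4. DekTg 2 was the lowest of all and DekCon 2 the highest, and the other 6 libraries mixed. The log2 fold change was -0.27 (95% interval -0.71 to 0.16, limma adjusted p = 0.812), and it was -0.04 without DekTg 2 and -0.13 without DekCon 2. U2af2 encodes the large subunit, which binds the polypyrimidine tract. Its values were 51.1, 36.0, 52.4 and 68.2 in DekTg, against 60.8, 80.4, 49.9 and 47.9 in DekCon. The groups overlapped and the same 2 libraries were at the ends, as with its partner. The log2 fold change of U2af2 was -0.20 (-0.67 to 0.26, limma adjusted p = 0.862), and it was -0.04 without DekTg 2, -0.05 without DekCon 2 and -0.34 without DekTg 4. The ratio of U2af1 to U2af2 within a library, which no scaling of libraries can change, was 3.0 ± 0.46 in DekTg and 3.16 ± 0.55 in DekCon (SD, n = 4 each).

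U2af1l4 encodes a shorter paralog of the small subunit. It had 51.1, 70.9, 65.0 and 28.3 in DekTg, against 49.4, 65.1, 57.5 and 52.5 in DekCon. The DekTg libraries held both the highest and the lowest value, so the DekTg spread (SD 18.9) enclosed the DekCon spread (SD 6.83). Its fold change of -0.13 (-0.64 to 0.38, limma adjusted p = 0.932) was 0.14 without DekTg 4. Reads of U2af1l4 are uncertain, because it shares 1086 exon bases with the annotated gene Gm49396 on the same strand and 119 with Psenen on the opposite strand, and whether the counting used strand is not stated. Within a library, U2af1l4 stood at 0.398 ± 0.264 of U2af1 in DekTg and 0.307 ± 0.028 in DekCon (SD, n = 4 each). DekTg 2 had 0.766, where U2af1 was low, and DekTg 4 had 0.154. Sf1, the branch point binding protein that works beside U2AF and leaves as U2 enters, had 283, 249, 229 and 288 in DekTg, against 273, 381, 271 and 266 in DekCon. DekCon 2 stood above the other 7 libraries, which overlapped. Its log2 fold change was -0.17 (-0.47 to 0.13, limma adjusted p = 0.823) and -0.05 without that library.

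**Figure D2:**
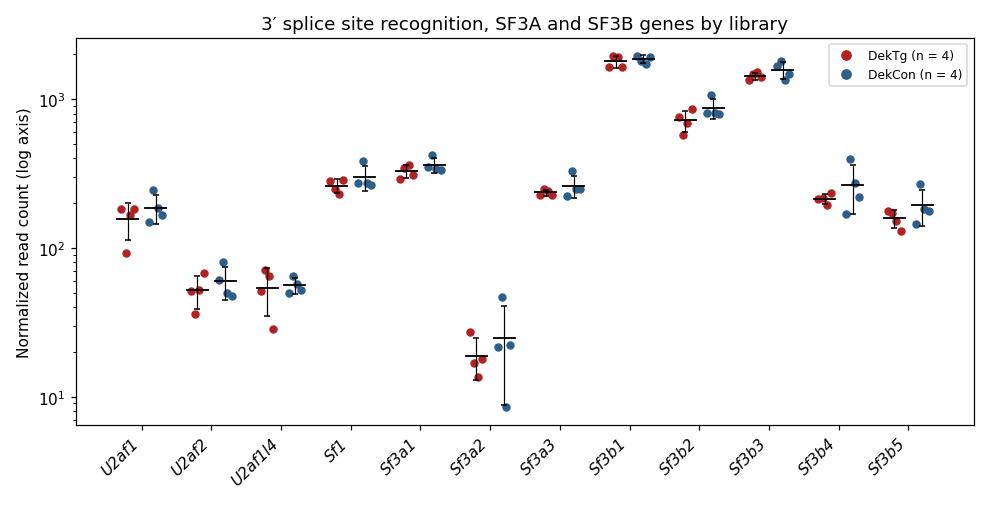
Normalized read counts (log axis) of the genes of 3′ splice site recognition, SF3A and SF3B in the 4 DekTg libraries (red, left) and the 4 DekCon libraries (blue, right); bars are means with SD. The groups overlap for every gene shown, from Sf3a2 (means 18.9 and 24.8) up to Sf3b1 (means 1791 and 1856).

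SF3A is the U2 subcomplex that tethers SF3B to the rest of the particle. Its subunit gene Sf3a1 had 293, 345, 361 and 308 in DekTg, against 350, 424, 337 and 332 in DekCon. Sf3a3 had 226, 249, 241 and 228 in DekTg, against 224, 326, 248 and 250 in DekCon. For both, DekCon 2 was the highest library and the rest overlapped. Their log2 fold changes were -0.14 (-0.41 to 0.13, limma adjusted p = 0.840) for Sf3a1 and -0.14 (-0.42 to 0.15, limma adjusted p = 0.849) for Sf3a3, and -0.06 and -0.03 without DekCon 2. Sf3a2 was the least read of all 34 genes, with 27.2, 16.8, 13.6 and 17.8 in DekTg, against 21.6, 46.9, 8.48 and 22.4 in DekCon. These values rest on 9 to 49 recovered reads, and DekCon supplied both the highest and the lowest. The interval of its fold change (-1.03 to 0.63 around -0.20, limma adjusted p = 0.936) was the widest of the 34, and the estimate was 0.17 without DekCon 2. Sf3a2 shares 429 exon bases with Plekhj1 on the opposite strand, whose mean value was 88.6.

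SF3B contacts the branch point, and Sf3b1 is its largest subunit. It had 1652, 1954, 1911 and 1647 in DekTg, against 1962, 1811, 1725 and 1926 in DekCon. The groups interleaved and DekCon 2 did not stand out. Its interval was among the narrowest: -0.30 to 0.20 around -0.05 (limma adjusted p = 0.943), or 0.81 to 1.15 as a ratio. The estimate turned to 0.03 with library totals made equal and to 0.12 with quantile normalization. Sf3b3, a scaffold subunit, had 1337, 1473, 1510 and 1399 in DekTg, against 1681, 1804, 1341 and 1485 in DekCon, with overlapping groups (-0.13, -0.40 to 0.13, limma adjusted p = 0.842). Its fold change was 0.03 with quantile normalization.

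Sf3b2, whose protein binds the pre-mRNA near the branch point, had 756, 575, 694 and 855 in DekTg, against 801, 1071, 812 and 792 in DekCon. Of the 4 DekTg libraries, 3 lay below every DekCon library and DekTg 4 lay among them. The fold change was -0.27 (-0.57 to 0.03, limma adjusted p = 0.734), and -0.17 without DekTg 2 or without DekCon 2. Within a library, Sf3b2 stood at 0.408 ± 0.099 of Sf3b1 in DekTg and 0.470 ± 0.086 in DekCon (SD, n = 4 each), so the ratio differed by less than its spread. The small subunit genes were again high in DekCon 2. Sf3b4, which encodes an RNA-binding subunit, had 214, 216, 195 and 234 in DekTg, against 170, 397, 274 and 221 in DekCon. Sf3b5 had 177, 172, 152 and 129 in DekTg, against 145, 268, 184 and 178 in DekCon. For both genes a DekCon library was the highest and the groups overlapped. Without DekCon 2 the log2 fold change was -0.02 for Sf3b4 (-0.24 with it, limma adjusted p = 0.823) and -0.10 for Sf3b5 (-0.27 with it, limma adjusted p = 0.783).

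In the U2 particle, Snrpa1 and Snrpb2 encode the proteins A′ and B″, which bind the U2 RNA together. Snrpb2 had 77.5, 150, 97.0 and 78.7 in DekTg, against 119, 135, 101 and 91.1 in DekCon (log2 fold change -0.18, -0.61 to 0.25, limma adjusted p = 0.866). Snrpa1 had 194, 204, 165 and 182 in DekTg, against 208, 277, 140 and 196 in DekCon (-0.10, -0.47 to 0.26, limma adjusted p = 0.921). The groups overlapped for both. Without DekCon 2 the estimates were -0.08 for Snrpb2 and 0.05 for Snrpa1, and without DekTg 2 that of Snrpb2 was -0.39. DekTg 2 was the highest library for Snrpb2, in contrast to U2af1 and U2af2.

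The U1 particle selects the 5′ splice site. Snrnp70, its largest specific protein, had 235, 180, 198 and 285 in DekTg, against 280, 316, 236 and 282 in DekCon. The lowest 3 values were all DekTg, and DekTg 4 lay above 3 of the DekCon libraries. Its fold change was -0.32 (95% interval -0.65 to -0.0020, limma adjusted p = 0.717), and -0.26 without DekCon 2. Luc7l2, a U1-associated factor that modulates 5′ splice site choice, had 476, 700, 642 and 539 in DekTg, against 639, 651, 702 and 605 in DekCon. DekTg libraries 1 and 4 were the lowest while DekTg 2 was close to the highest. The fold change of Luc7l2 was -0.15 (-0.43 to 0.13, limma adjusted p = 0.835) and 0.0062 with quantile normalization. Snrpa averaged 317 ± 37 in DekTg and 344 ± 63 in DekCon, and Snrpc 172 ± 9 in DekTg and 189 ± 34 in DekCon (SD, n = 4 each). Both encode U1-specific proteins (limma adjusted p = 0.900 and 0.891). The difference was within both SDs for Snrpa, while for Snrpc it exceeded the DekTg SD and was within that of DekCon. Without DekCon 2 the log2 fold changes were 0.01 and -0.01. Snrpa also shares 327 exon bases with BC024978 on the opposite strand.

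The Sm ring is the set of small proteins that closes around the U1, U2, U4 and U5 RNAs. Snrpb, which encodes SmB, had the smallest p of the 34 genes. It lies at chr2:130171414-130179403 on the minus strand (GRCm38, GENCODE). It had 736, 413, 671 and 722 in DekTg, against 879, 1260, 758 and 909 in DekCon. Every DekTg library lay below every DekCon library, by a small margin at the nearest pair (736 and 758). Snrpb and Eftud2 were the 2 of 34 genes whose groups did not overlap with DekTg lower, against 1.88% of all genes tested (3.97% in either direction), and no gene of the 34 had DekTg higher without overlap. Of the 16904 tested genes in the level range of the 34, 513 had DekTg lower without overlap. The log2 fold change of Snrpb was -0.59 (SE 0.18, 95% interval -0.98 to -0.20, limma adjusted p = 0.707). Leaving out single libraries did not bring it past the threshold: it was -0.45 without DekCon 2 and -0.40 without DekTg 2, and over all 26 alternatives it ran from -0.69 to -0.25 with adjusted p from 0.169 to 0.930. Relative to the mean of the other 6 Sm genes in the same library, Snrpb stood at 4.01, 1.77, 3.82 and 4.46 in DekTg, against 4.95, 5.0, 3.66 and 4.73 in DekCon. On that ratio the groups overlapped, and DekTg 2 was far below the rest.

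The other Sm genes showed a different order of libraries. Snrpd2, which encodes SmD2, had 137, 183, 143 and 145 in DekTg, against 151, 246, 189 and 160 in DekCon. DekTg 2 exceeded 2 of the DekCon libraries, and the other DekTg libraries lay below all 4. Its fold change was -0.28 (-0.62 to 0.07, limma adjusted p = 0.759), and -0.14 without DekCon 2. DekTg 2 was the highest DekTg library for 5 of the 6 Sm genes other than Snrpb. The remaining 5 of them (Snrpd1, Snrpd3, Snrpe, Snrpf and Snrpg) averaged 176 to 222 in DekTg and 187 to 239 in DekCon, with log2 fold changes from -0.22 for Snrpd3 to -0.06 for Snrpf. Of these signs 3 were not stable to scaling: Snrpd1, Snrpe and Snrpf turned to 0.0063, 0.013 and 0.026 with library totals made equal. Snrpe differed in its spread, with 193, 232, 160 and 140 in DekTg, against 185, 191, 183 and 189 in DekCon.

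**Figure D3:**
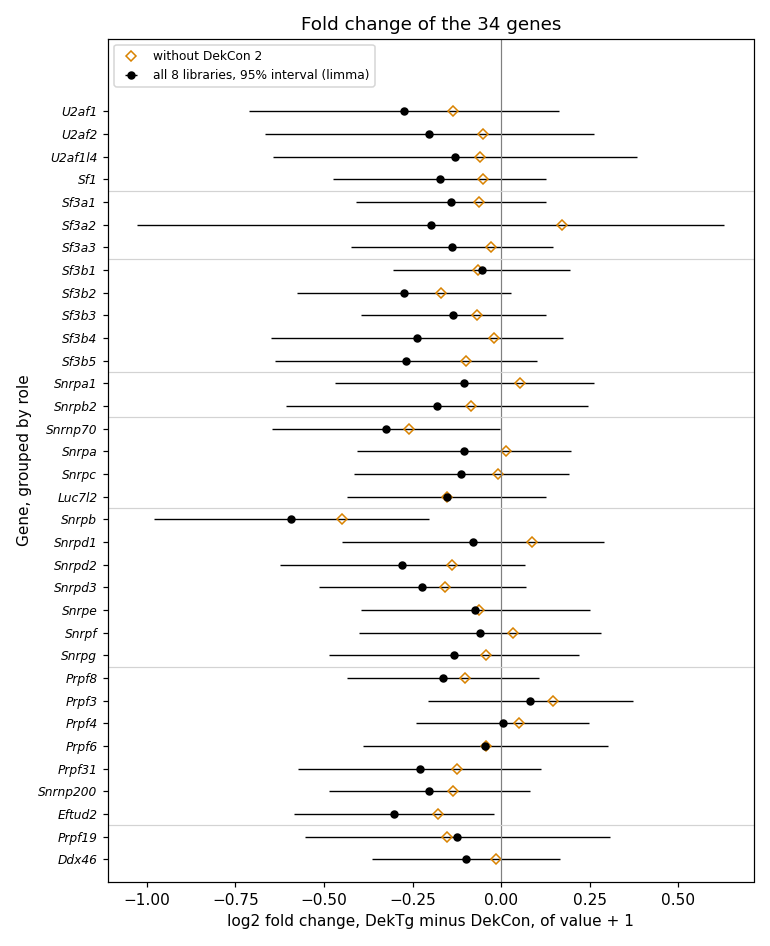
Log2 fold change of value + 1, DekTg minus DekCon, for the 34 genes with limma's 95% interval from all 8 libraries (black) and the estimate without DekCon 2 (open orange diamonds). The interval excludes 0 before adjustment for Snrpb, Eftud2 and Snrnp70, no gene passes after it, and 29 of 34 estimates lie nearer to 0 without DekCon 2.

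In the tri-snRNP and catalytic core, Eftud2 encodes the GTPase of the U5 particle. It had 395, 380, 392 and 387 in DekTg, against 478, 618, 436 and 408 in DekCon. The DekTg values lay close together (SD 6.66) and below all DekCon values, whose SD was 93.2. The log2 fold change was -0.30 (SE 0.13, 95% interval -0.58 to -0.02, limma adjusted p = 0.711) and -0.18 without DekCon 2. Eftud2 shares 2261 exon bases with the long noncoding gene Gm26668 on the opposite strand. Snrnp200, the helicase that unwinds U4 from U6, had 295, 392, 368 and 295 in DekTg, against 389, 443, 347 and 368 in DekCon, with overlapping groups (-0.20, -0.49 to 0.08, limma adjusted p = 0.786). Prpf8, the scaffold of the catalytic centre, averaged 351 ± 47 in DekTg and 392 ± 36 in DekCon (-0.16, limma adjusted p = 0.816).

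Prpf4 and Prpf3 encode partner proteins of the U4/U6 particle, and they were the 2 genes of 34 with an estimate above 0. Prpf4 averaged 515 ± 16 in DekTg and 515 ± 47 in DekCon (log2 fold change 0.0043, 95% interval -0.24 to 0.25), and Prpf3 averaged 148 ± 13 in DekTg and 140 ± 14 in DekCon (0.08, -0.21 to 0.37). Prpf31, also of the U4/U6 particle, averaged 199 ± 41 in DekTg and 232 ± 39 in DekCon, and Prpf6, which bridges it to U5, averaged 204 ± 41 in DekTg and 208 ± 28 in DekCon (SD, n = 4 each). None of these 4 differences exceeded the spread between libraries (limma adjusted p from 0.797 to 0.995). Of the other 2 factors, Ddx46, the helicase that remodels U2 at the branch point, had 302, 320, 350 and 322 in DekTg, against 330, 414, 314 and 335 in DekCon. Prpf19, a ubiquitin ligase of the activated spliceosome, had 31.3, 27.6, 35.9 and 36.7 in DekTg, against 31.7, 33.5, 40.5 and 37.8 in DekCon. The groups overlapped for both (Ddx46 -0.10 and Prpf19 -0.12, limma adjusted p = 0.889 and 0.920).

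Levels per length differed far more between these genes than between the genotypes. Divided by the kilobases of all annotated exons of the gene, the mean normalized read count over the 8 libraries ran from 4.73 per kilobase for Prpf19 and 8.22 for Sf3a2 to 214 for Snrpf and 402 for Snrpb, with a median of 54.3. Subunits of 1 complex were not level with each other: in SF3A, Sf3a1 and Sf3a3 had 55.9 and 89.4 per kilobase beside the 8.22 of Sf3a2, and in U2AF, U2af1 had 65.8 beside 13.6 for U2af2. In SF3B the range was 45.7 for Sf3b5 to 160 for Sf3b1. Annotated exon length can exceed the length of the transcripts used. Reads can also be split with copies: transcripts of 13 of the 34 genes aligned at 95% identity or more over at least 200 bases to 27 copies elsewhere, 25 of them annotated pseudogenes. For 12 of those 13 genes the copies' summed value was under 15% of the gene's own, up to 12.5% for Snrpa. For Prpf19 the pseudogene Gm7701 had a mean value of 21.9, or 63.6% of Prpf19, so the level of Prpf19 is uncertain. Separately, 12 of the 34 genes share exon bases with a gene on the opposite strand. Of the 861 exon bases of Snrpf, 567 are shared with Ccdc38 and 168 with 4933408J17Rik, so its level per length is uncertain.

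The genes differed in how closely they followed the shared pattern of libraries. Over the 8 libraries, as a description in which all genes share the same libraries, depth and scaling, Pearson's r between a gene and the median of the 34 was above 0.5 for 25 genes. Eftud2 (0.934), Sf3a3 (0.927), Snrpd2 (0.899) and Sf3b5 (0.863) followed it most. Sf3b1 (0.179), Prpf6 (-0.097) and Prpf19 (-0.110) followed it least. The median coefficient of variation of the 34 genes was 13.8% in DekTg and 15.3% in DekCon, and 8.55% in DekCon without DekCon 2.

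Other splicing genes, 104 in 8 lists, gave 0 called genes by limma, by edgeR and by DESeq2 without independent filtering. By limma 12 were at an unadjusted p under 0.05 (11.5%, against 6.93% of all genes tested and 1550 of the 16904 genes in the level range of the 34). Their median log2 fold change was -0.18 with 86 of 104 below 0 (82.7%, against 49.4% of all genes tested and 57.9% of those in the level range of the 34). Without DekCon 2 it was -0.11 with 79 of 104 below 0 (76.0%, against 50.9% of all genes tested and 57.4% of those in the level range). Without DekTg 2 the median was -0.18 with 93 of 104 below 0. The backgrounds were then 47.8% of all genes tested and 9481 of the 16904 in the level range. At an unadjusted limma p under 0.05 were 7 of 104 without DekCon 2 (against 5.18% of all genes tested and 965 of the 16904). Without DekTg 2 this count was 25 of 104 (against 8.46% and 2067 of the 16904). Proteins that associate with U2 had a median of -0.20 (10 of 12 below 0), with the 3′ splice site factor Rbm17 at -0.40 and the helicase Ddx42 at -0.24. Other tri-snRNP genes had -0.22 (14 of 17), with the U5 protein Snrnp40 at -0.41 and Lsm6 at -0.47. The Prp19 complex and catalytic step factors had -0.18 (17 of 19), with the second-step factor Slu7 at -0.39 and Syf2 at -0.51, or -0.30 without DekTg 2.

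SR proteins, which bind exonic enhancers, had a median of -0.20 (12 of 14 below 0), with Srsf2 at -0.50 and Srsf11 at -0.34. The hnRNPs had -0.20 (14 of 15), with Hnrnpa0 at -0.59 (-0.32 without DekTg 4) and Pcbp1 at -0.35 (-0.17 without DekCon 2 and -0.22 without DekTg 2), and exon junction complex genes had -0.18 (9 of 10), with Casc3 at -0.43 and Acin1 at -0.22. U1-associated genes had -0.10 (6 of 8), with Prpf40b at -0.55 and Luc7l3 at -0.23. All 14 of these named genes had a limma adjusted p between 0.707 and 0.747.

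The minor spliceosome, which removes the rare class of introns spliced with U12, was the list nearest to 0, at 0.0038 with 4 of 9 genes below it. It held both the lowest and the highest estimate of the 104 genes. Snrnp25, a protein of the U11/U12 particle, averaged 43.8 ± 18.5 in DekTg and 76.3 ± 12.8 in DekCon (log2 fold change -0.90, limma adjusted p = 0.711). DekTg 2 had 18.0, against 42.7 to 57.7 in the other DekTg libraries, and the fold change was -0.53 without it. Zrsr1, a relative of U2af1 that acts at 3′ splice sites of such introns, averaged 51.1 ± 4.0 in DekTg and 36.5 ± 4.8 in DekCon, without overlap (0.48, limma adjusted p = 0.711). Neither passed.

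**Figure D4:**
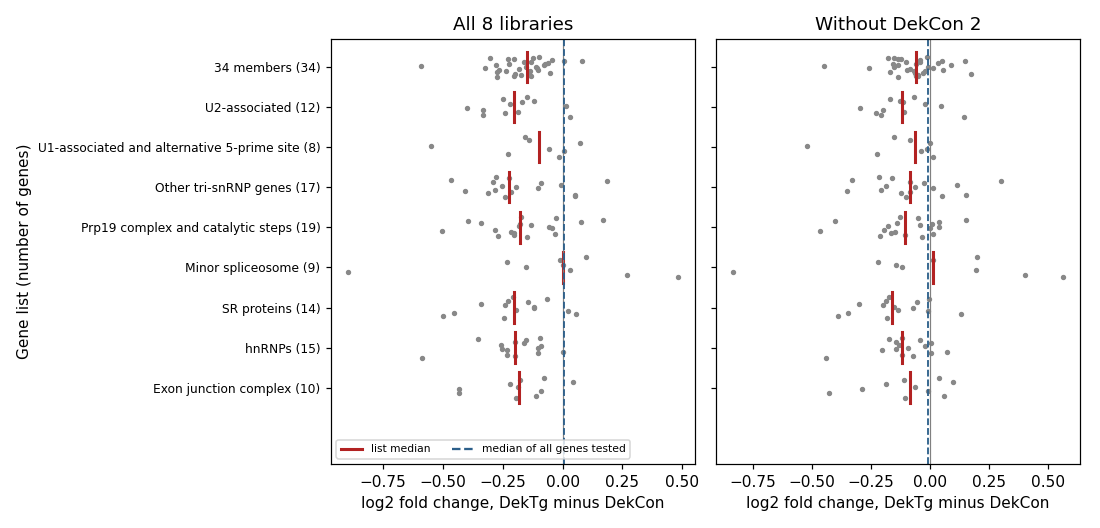
Log2 fold change, DekTg minus DekCon, of each gene (grey points) in the 34-gene set and in 8 lists of other splicing genes, with the list median (red bar) and the median of all genes tested (dashed line), from all 8 libraries (left) and without DekCon 2 (right). The median bar of the 34 genes lies at -0.15 on the left and at -0.06 on the right, and the bar of the minor spliceosome lies close to 0 in both panels. Single genes lie on both sides of 0, with more of them below it: 32 of 34 and 86 of 104 on the left, 27 of 34 and 79 of 104 on the right.

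The precision sets what these data could show. For 33 of the 34 genes limma's 95% interval lay within a 2-fold change either way, the exception being Sf3a2. These intervals are not adjusted for the number of genes tested, so they do not give the size of difference that the test would call. Outside the 34, Snrnp25 was not called at a log2 fold change of -0.90 (limma adjusted p = 0.711). A difference between the genotypes in any of these genes may have gone undetected at this depth and with 4 libraries a group.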

How the data were processed

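RNA was extracted with a miRNeasy kit, amplified by Geo-seq (a protocol for few cells) and tagmented into libraries, per the labels' protocols. Bowtie 0.12.9, Cufflinks 2.1.1, HTSeq, DESeq2 and mm10 are named in the submitters' processing notes. Which did what, which annotation was used and whether counting used strand is not stated. The deposited table is named FPKM, but its signal values are gene counts that the authors divided by 1 factor per library: 99.99% of the deposited values are whole multiples of a step per library (tolerance 0.001 reads), and the steps match DESeq2 size factors within 4.44e-05. The 25 values that are not whole belong to Dek, Cdc20, Cdk1, Fos, Ifit2 and Csf2. The limma test planned for FPKM was kept. Columns spelled DenCon were read as DekCon.

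Genes with a value of at least 1 in at least 4 libraries were tested with limma 3.58.1 (R 4.3.3, trend, no covariates) on log2(value + 1), two-sided. EdgeR 4.0.16 and DESeq2 1.42.0 were run on recovered reads without those 6 genes, and Dek was tested by exact permutation (scipy 1.17.1). The procedure was tested on simulated data. Positions, exon lengths and transcripts are from GENCODE M21 (GRCm38, which mm10 names), and blastn found the copies. The members and gene lists were chosen with earlier results of these data known. All 34 genes are named, with library values for the U2AF, Sf1, SF3A and SF3B genes and for the 2 genes of smallest p in each other role, and each list of other splicing genes names its 2 genes of smallest p. The labels do not say that libraries come from separate mice, so p-values measure the spread between these libraries. Reads of amplified cDNA without molecular identifiers are not independent molecules. Same-numbered libraries of the 2 groups did not deviate together (correlations -0.0028 to 0.020). The summed level of the stem cell marker list is not reported here.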

Additional observations from a re-analysis of the deposited data

Results flagged for a closer look

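Over 68 groups of 4 libraries (34 genes in each genotype), 3 held a library set apart from the other 3 by Dixon's criterion. Chance gives 1 in 20 in independent groups. Genes of a genotype share the same 4 libraries, so the groups are not independent and the share was not read against that rate. In DekCon, library 2 stood apart for Sf1, with 381 normalized read counts, and for Sf3b2, with 1071. In DekTg, library 2 stood apart for Prpf6, with 143.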

How the results depend on the processing

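None of the 34 genes was called in any of 26 alternatives, and the smallest adjusted p of any of them was 0.169, for Snrpb. Leaving out single libraries gave 27 to 33 of the 34 genes below 0 and medians from -0.19 to -0.06. The count of all genes called was 13, and 13 to 22 on leaving out a library, 4 without limma's trend, 8 without the genes holding values that are not whole, and 39 with DekCon 2 and DekTg 2 both left out, a setting chosen after seeing the data, in which 1 of the 104 other splicing genes passed, Srsf2. With the replicate number as a block it was 15, with 0 of the 34 and 0 of the 104 other splicing genes called. The ratio of Dek means was 4.36 to 5.09 on leaving out a library (exact permutation p = 0.0571, the smallest that 3 against 4 allows). The median deviation in DekCon 2 was 0.20 with library totals made equal.

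Of 884 values of single genes, 35 changed sign, in 16 genes. With library totals made equal these were Sf3b1 (0.032), Snrpd1 (0.0063), Snrpe (0.013), Snrpf (0.026) and Prpf6 (0.041). With quantile normalization they were Sf3b1 (0.12), Sf3b3 (0.031), Snrpa (0.017), Luc7l2 (0.0062), Snrpd1 (0.0096), Snrpe (0.0071), Snrpf (0.030), Prpf6 (0.057) and Ddx46 (0.012). Library weights gave 0.026 for Prpf6, and averaging libraries 1 and 4 of each group gave 0.0067 for Sf3b1. With DekCon 2 and DekTg 2 both left out the values were 0.099 for U2af1, 0.11 for U2af2, 0.21 for Sf3a2, 0.0067 for Snrpa1, 0.083 for Snrpa and 0.12 for Prpf6. Leaving out single libraries gave ranges that cross 0 of -0.13 to 0.12 for Prpf6, -0.19 to 0.043 for Snrpf, -0.056 to 0.050 for Prpf4, -0.29 to 0.14 for U2af1l4, -0.20 to 0.043 for Snrpe, -0.27 to 0.0032 for Snrpg, -0.61 to 0.17 for Sf3a2, -0.27 to 0.053 for Snrpa1, -0.18 to 0.013 for Snrpa and -0.19 to 0.087 for Snrpd1. The cause of these changes was not tested. Depth limits Sf3a2, Prpf19, U2af1l4 and U2af2 most, with 9, 23, 27 and 30 reads in their shallowest libraries.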
